A study of Mus musculus with 2 samples.

Results

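Runx1, Runx2, Runx3 and Cbfb, the 4 genes that encode the core-binding factors of the mouse, were examined in maps of H3K4me3 from lung group 2 innate lymphoid cells (ILC2s). The genes were taken by symbol from the 21951 protein-coding genes of the GENCODE annotation of GRCm38. Every peak that overlapped a gene or lay within 1000 bp of one of its transcript starts was counted, which gave 8 of 42126 peaks in the library from offspring of control mothers (the control list) and 9 of 51610 in that from offspring of asthmatic mothers (the asthma list). Female C57BL/6J mice received alum with or without ovalbumin (OVA) by intraperitoneal injection, were mated with untreated males, and were given OVA (asthmatic mothers) or PBS (control mothers) intranasally between gestation days 4 and 17. ILC2s were taken from the lungs of the 8-week-old offspring, and H3K4me3 was profiled by CATCH-seq, a native ChIP-seq that uses carrier DNA and chromatin cut by micrococcal nuclease. Each library held about 3000 cells, and there was 1 library per group, so no value has a replicate and no test between the groups was possible. The study gives a total sequencing depth for these data but no split between the libraries, and the number of offspring behind a library is not given in the sources used here. The data come from 1 experiment with 1 dam per group, so the treatment of the mothers cannot be told apart from differences between the 2 dams and litters.

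Runx proteins are transcription factors that bind DNA through the Runt domain, and Cbfb encodes the partner that strengthens this binding without touching DNA itself. Runx1 is known for the making of blood cells, Runx2 for bone, and Runx3 for lymphocytes, nerve cells and gut epithelium. Each Runx gene can be transcribed from a distal promoter, P1, and from a proximal promoter, P2, which give proteins with different first residues. H3K4me3 is a histone mark found around transcript starts that are in use or poised for use. In the annotation P1 was taken as the most upstream group of coding starts, and P2 as the other group with the most transcripts with a complete start of the coding sequence, or the more upstream of groups that tie, as in Runx1.

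The reference sequences of the 3 distal promoters had 1 stretch of 18 bases in common, found as the longest run of letters shared by the 300-base RefSeq windows of P1 (GRCm38.p6). It is shown because it holds the letters of the Runx motif 2 times, and each line gives 30 bases on the gene's strand with the shared 18 in capitals.
Runx1 P1: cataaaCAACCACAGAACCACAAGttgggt
Runx2 P1: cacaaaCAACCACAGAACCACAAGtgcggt
Runx3 P1: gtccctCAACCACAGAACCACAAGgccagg
The Runx1 sequence runs over chr16:92826025-92826054 on the minus strand, the Runx2 sequence over chr17:44814583-44814612 on the minus strand, and the Runx3 sequence over chr4:135120503-135120532 on the plus strand. The shared bases began 26 bases downstream of the RefSeq start in Runx1, 21 bases downstream in Runx2 and at −136 bases, that is upstream, in Runx3. They occurred 3 times on both strands of the 21 assembled chromosomes. Of 32851 RefSeq promoter windows, 4 held them, those of the 3 Runx genes and of Gm16225. The 3 occurrences on these chromosomes are those shown, so the window of Gm16225 adds no further place on them. At least 2 copies of TGTGGT, the common Runx motif, on 1 strand were found in 1.13% of these windows, and the motif on either strand in 16.8%. None of the 3 stretches lay inside an H3K4me3 peak of either list.

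Of the upstream sequences of the promoters, 4 are shown here, a distal and a proximal promoter with a peak at the start and 1 of each without. Each line gives the 250 bases before the first coding start on the gene's strand, with TGTGGT or its reverse complement ACCACA in capitals.
Runx1 P1, peak in both lists: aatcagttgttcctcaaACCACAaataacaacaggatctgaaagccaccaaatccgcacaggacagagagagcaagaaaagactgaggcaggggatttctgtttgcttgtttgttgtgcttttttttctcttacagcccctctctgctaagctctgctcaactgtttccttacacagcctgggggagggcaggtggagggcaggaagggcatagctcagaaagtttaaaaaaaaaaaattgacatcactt
Runx3 P1, no peak: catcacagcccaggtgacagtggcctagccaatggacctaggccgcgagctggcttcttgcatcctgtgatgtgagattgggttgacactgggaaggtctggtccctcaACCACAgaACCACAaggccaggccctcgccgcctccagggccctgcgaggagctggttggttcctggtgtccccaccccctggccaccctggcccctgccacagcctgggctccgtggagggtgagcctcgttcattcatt
Runx1 P2, no peak: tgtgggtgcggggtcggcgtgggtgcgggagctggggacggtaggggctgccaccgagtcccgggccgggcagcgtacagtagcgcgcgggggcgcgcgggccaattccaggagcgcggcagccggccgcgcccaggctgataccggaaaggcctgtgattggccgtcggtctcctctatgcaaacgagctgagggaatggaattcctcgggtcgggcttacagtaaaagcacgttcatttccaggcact
Runx3 P2, peak in both lists: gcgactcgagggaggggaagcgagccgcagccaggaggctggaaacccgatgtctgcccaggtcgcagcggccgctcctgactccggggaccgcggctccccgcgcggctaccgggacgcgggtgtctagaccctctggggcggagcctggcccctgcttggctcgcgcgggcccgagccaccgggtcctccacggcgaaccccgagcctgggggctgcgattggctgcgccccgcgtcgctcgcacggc
These are chr16:92826150-92826399, chr4:135120402-135120651, chr16:92697329-92697578 and chr4:135152246-135152495. The motif was found 1 time upstream of P1 of Runx1, 1 time upstream of P1 of Runx2 and 2 times upstream of P1 of Runx3, and not upstream of the 3 proximal promoters or of Cbfb. Of 32515 coding promoters, 13.9% held it on either strand in these 250 bases. TGCGGT, a second letter form of the Runx motif, was found upstream of none of these promoters and in 4.85% of all.

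The 4 genes have 8 promoters, namely P1 and P2 of each Runx gene, a further group of coding starts of Runx1 and the promoter of Cbfb, and 4 of the 8 had a peak in both libraries. Runx1 had a peak at its distal promoter and none at its proximal promoter, whereas Runx2 and Runx3 had peaks at their proximal and none at their distal promoters. Cbfb, with 1 promoter, had peaks there. In the asthma list, P2 of Runx3 lost its peak at a distance of 500 bp and P2 of Runx2 at a −log10 q of at least 5. With the 10000 peaks of highest −log10 p of each list, 2 promoters had a peak in the control list and 0 in the asthma list. Across all genes, a coding promoter had a peak in 35.9% of cases in the control list and in 29% in the asthma list. A start peak was found for 51.0% and 42.0% of coding genes, and a peak anywhere in the gene or at a start for 58.2% and 51.9%. By place, the 8 peaks of the control list were 1 distal, 3 proximal, 1 at the Cbfb promoter and 3 inside genes. The 9 of the asthma list were 1 distal, 3 proximal, 2 at the Cbfb promoter, 1 at a non-coding start of Runx3 and 2 inside genes. A signal below the peak caller's threshold would not be listed, so a promoter without a peak is not shown to lack the mark.

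**Figure D1:**
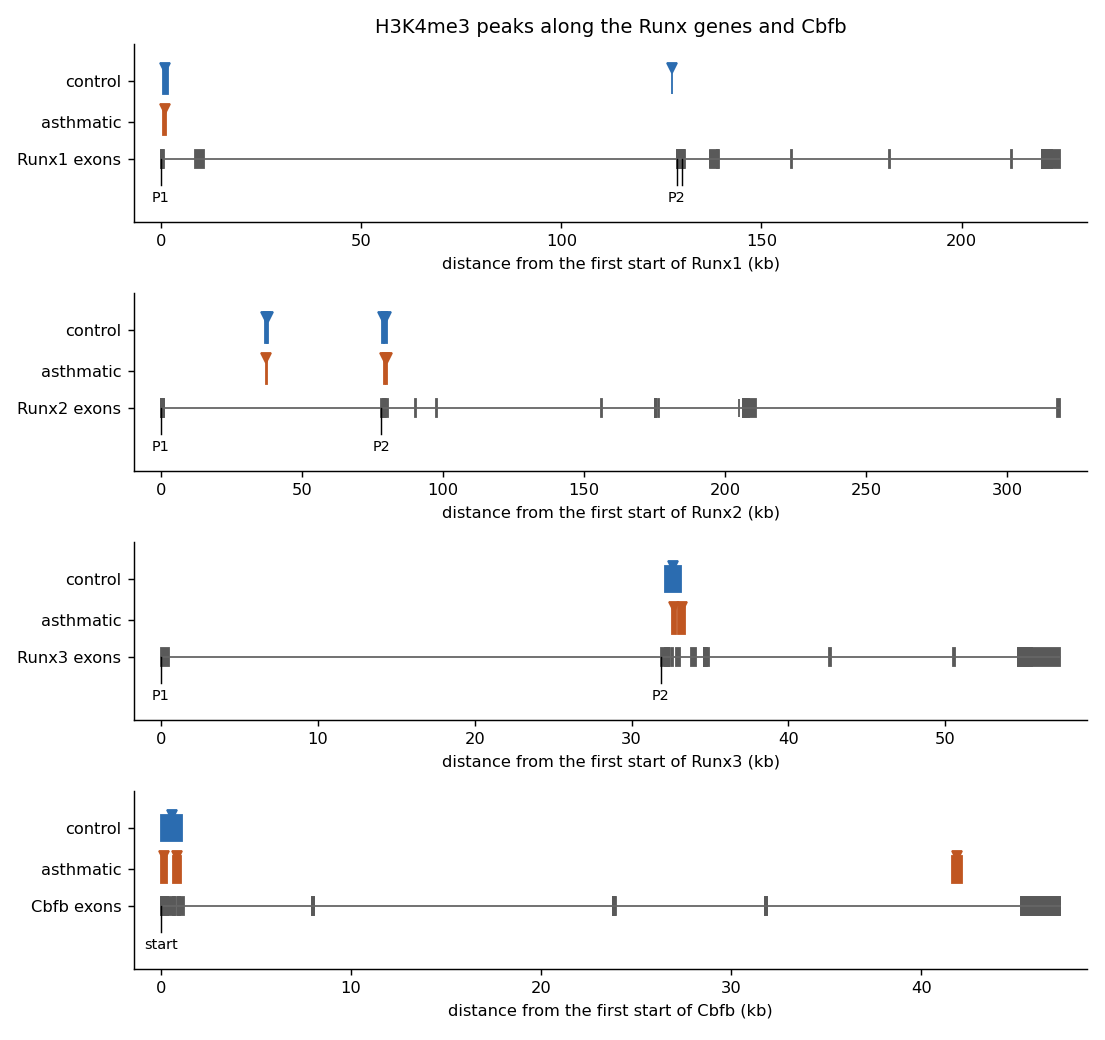
Peaks of offspring of control mothers (blue) and asthmatic mothers (orange) along the 4 genes, with the distance from the first start in kb on each horizontal axis, exons as grey boxes and triangles above peaks. Peaks of both lists stand at P1 of Runx1, P2 of Runx2 and Runx3 and the start of Cbfb, while 1 peak each in Runx1, Runx2 and Cbfb overlaps none of the other list, beside an overlap in 46.3%, 48.8% and 86.7% of peaks of like −log10 q (for Runx1 and Cbfb, those away from starts).

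Runx1 (ENSMUSG00000022952.17) lies on the minus strand at chr16:92601466-92826149, and its P1 and P2 starts are 128821 bp apart. In the control list the P1 peak ran over chr16:92824510-92825546, and its summit was 6.47 times the caller's background (the fold). Its −log10 q of 16.0 was at the 88.6th percentile of all peaks of that list and at the 73.4th of those at coding starts. In the asthma list the peak ran over chr16:92824915-92825532 and had a fold of 5.00. Its −log10 q of 6.20 was at the 38.0th percentile there and at the 34.3rd among start peaks. Both peaks lay in the first intron downstream of the starts, overlapped no exon, and came within 232 bp and 246 bp of the nearest coding start. The summits were 1019 bp and 993 bp downstream of the P1 start. Solved from fold and p, the summit of the control list held 35 fragments (exact Poisson 95% interval 24.4 to 48.7) and that of the asthma list 16 (9.15 to 26.0). These intervals cover counting error only and describe 2 libraries, not the conditions. Among start peaks of the control list whose −log10 q was at most 0.5 from this one, 92.8% of 642 overlapped a peak of the other list.

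P2 of Runx1, at position 92697328, had no peak within 1000 bp in either list. A small peak of the control list at chr16:92698408-92698612 lay 1080 bp upstream of it, just outside that distance. It was 205 bp wide with a fold of 3.75, a −log10 q of 3.33 and 12 fragments (6.20 to 20.96), and only 1.52% of that list had a lower −log10 q. It overlapped no peak in the asthma list, whose nearest peak to P2 was 127587 bp away, at P1. Among the 155 start peaks of the control list whose −log10 q was at most 0.5 from its value, 12.3% (7.54 to 18.5%, exact Clopper-Pearson 95% interval) overlapped a peak of the other list. Away from coding starts, where this peak lies, the share was 46.3% of 1281. A further group of coding starts of Runx1, with first position 92696125, had no peak in either list.

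Runx2 (ENSMUSG00000039153.16) lies on the minus strand at chr17:44495987-44814797, with P1 and P2 starts 78149 bp apart. P2 is a broad group of 5 coding starts between positions 44736648 and 44734693, and it carried 2 peaks in each list. Those of the control list ran over chr17:44734660-44735622 (fold 4.95, −log10 q 11.2, 32 fragments with an interval of 21.9 to 45.2) and chr17:44735746-44736361 (fold 4.44, −log10 q 9.01, 29 fragments). Those of the asthma list ran over chr17:44734727-44734985 (fold 4.20, −log10 q 4.67, 15 fragments with an interval of 8.40 to 24.7) and chr17:44735330-44735809 (fold 3.92, −log10 q 3.99, 14 fragments). Joined over gaps of at most 1000 bp, the peaks made a domain of 1702 bp in the control list and of 1083 bp in the asthma list. The joined domain of Runx2 was wider than nearly all domains at starts, at the 98.3rd and 95.6th percentiles of width. Its highest −log10 q stood far lower within each list, at the 73.1st and 15.3rd percentiles of all peaks. The upstream peak of the control list also covered the start of Runx2os1, an antisense RNA that begins at position 44735845, and the other P2 peaks lay 223 bp (control list), 36 bp and 860 bp (asthma list) from it. The mark at P2 thus cannot be given to 1 of the 2 genes in either list. P1 of Runx2 had no peak, and the nearest ones were 36444 bp and 36473 bp away.

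Those nearest peaks lay inside Runx2 but at the start of Supt3 (ENSMUSG00000038954.14), which is transcribed on the opposite strand from starts at 44777152 and 44777396 and encodes a subunit of the SAGA coactivator complex. In the control list the larger ran over chr17:44777215-44777782, with a fold of 9.87, a −log10 q of 20.97 (95.7th percentile) and 31 fragments. A smaller one at chr17:44776816-44777053, with a −log10 q of 8.39, lay 99 bp from the first Supt3 start and overlapped no peak of the asthma list. Of 921 start peaks in the control list whose −log10 q was at most 0.5 away, 48.8% (45.5 to 52.0%) had such an overlap. In the asthma list 1 peak at chr17:44777302-44777753 had a fold of 5.46, a −log10 q of 6.00 (36.2nd percentile) and 13 fragments. In each list the peak of highest −log10 q within the Runx2 gene thus lay at the start of another gene. Without peaks within 1000 bp of a start of another coding gene, a selection chosen after seeing the data, 6 and 8 peaks were left at the 4 genes.

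Runx3 (ENSMUSG00000070691.10) lies on the plus strand at chr4:135120652-135177990, with P1 and P2 starts 31844 bp apart. P1 had no peak, and the nearest ones were 32133 bp and 32587 bp downstream of it. In the control list 1 peak at chr4:135152785-135153810 began 289 bp downstream of the P2 start, at position 135152496, with a fold of 5.31, a −log10 q of 11.1 (72.8th percentile) and 29 fragments (19.4 to 41.6). The asthma list held 2 narrower peaks there, the second of which reached beyond the downstream end of the control peak. The first, chr4:135153239-135153455, began 743 bp downstream of the P2 start and had a fold of 4.29, a −log10 q of 5.07 (19.2nd percentile) and 16 fragments. The second, chr4:135153618-135154052, was stronger, with a fold of 5.51, a −log10 q of 8.62 (64.8th percentile) and 21 fragments, but lay 1122 bp from the coding start and 113 bp from a non-coding start of Runx3 at 135153505. Joined, the peaks spanned 1026 bp and 814 bp, the 83.4th and 87.7th percentiles of width.

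Cbfb (ENSMUSG00000031885.14) lies on the plus strand at chr8:105170674-105217989 and has 1 promoter. In the control list its start peak ran over chr8:105170686-105171780, with a fold of 7.43, a −log10 q of 16.0 (88.5th percentile) and 30 fragments (20.2 to 42.8). In the asthma list the start held 2 peaks, chr8:105170688-105171008 (fold 6.15, −log10 q 7.96, 60.5th percentile, 16 fragments) and chr8:105171314-105171704 (fold 6.03, −log10 q 7.47, 53.1st percentile, 15 fragments). The joined widths of 1095 bp and 1017 bp were at the 86.9th and 94.2nd percentiles. Without joining, the widest single peak was 1095 bp in the control list and 391 bp in the asthma list.

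The peak with the highest −log10 q of all those listed at these genes stood in an intron of Cbfb and only in the asthma list, at chr8:105212268-105212834. Its fold was 12.7, its −log10 q 32.9 (99.1st percentile) and its summit held 42 fragments (30.3 to 56.8), and it lay 41323 bp from the nearest coding start. Of 30 peaks of the asthma list away from coding starts whose −log10 q was at most 0.5 from it, 26 (86.7%, 69.3 to 96.2%) overlapped a peak of the control list. The 75 bases around its summit recurred 13 times in the genome, all inside the same peak and all at steps of 32 bases. The repeated unit is shown because nearly the whole peak is made of it, from chr8:105212343-105212374 on the plus strand.
Cbfb intron repeat unit: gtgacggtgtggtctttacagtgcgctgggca
Exact copies of the unit numbered 16 and made up 90.3% of the peak. The reference's repeat masking covered 0% of it. Reads from such an array can be placed at any of its copies, and the part this has in the peak was not tested. In the lists as a whole, 92.6% of summits away from starts in the control list and 94.8% in the asthma list had an exact copy elsewhere, against 3.17% and 4.77% of those at starts. None of the promoter peaks of the 4 genes had such a copy at its summit.

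**Figure D2:**
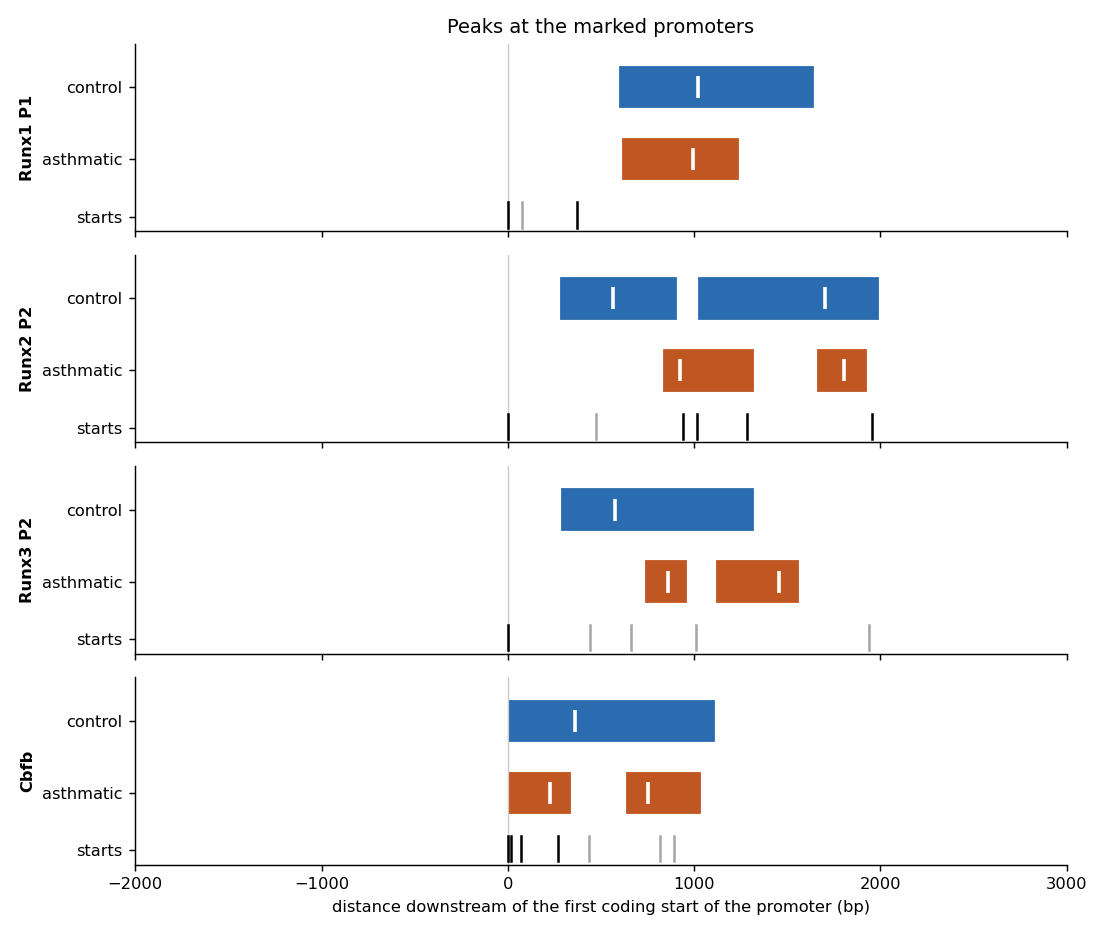
Peaks (bars) and their summits (white lines) around the 4 marked promoters, in bp downstream of the first coding start, for offspring of control mothers (blue) and asthmatic mothers (orange), with coding starts in black and other starts in grey below. Every peak lies downstream of the first start, the Runx1 summits by 1019 bp and 993 bp.

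At Runx1 P1, Runx2 P2 and Cbfb the highest −log10 q, its fold and fragments, and the joined width were lower in the asthma list. At Runx3 P2 this held for the peak within 1000 bp of the coding start and for the joined width, whereas the second peak of that domain had a fold of 5.51 beside 5.31 for the control peak, with a lower −log10 q and fewer fragments. The median −log10 q and width of start peaks were lower in the asthma list too. The median −log10 q of all start peaks was 12.0 in the control list and 7.53 in the asthma list, and their median width 472 bp and 320 bp. The solved fragments at the highest promoter peak were 29 to 35 in the control list and 15 to 16 in the asthma list, or 15 to 21 with the second Runx3 peak. The caller's background at these summits, solved in the same way, was 4.56 and 2.40 fragments at Runx1 P1, 5.66 and 2.81 at Runx2 P2, 4.65 and 2.96 at Runx3 P2, and 3.17 and 1.76 at Cbfb, so it was higher in the control list at all 4 as well. Over 2000 peaks sampled from each list, the smallest solved background was 1.83 and 1.57 fragments. Divided by the smallest peak width of the list, this made 96.1 and 100 fragments per 10 kb, so by that measure the lists were close. Folds, p and q were not scaled between the libraries, and differences in library quality and in the cells cannot be told apart with 1 library each. Widths were not scaled either, and the smallest peak was 190 bp wide in the control list and 156 bp in the asthma list. Within-list percentiles of joined width were lower in the asthma list at Runx1 P1 (84.0 and 76.5) and Runx2 P2 (98.3 and 95.6). They were higher there at Runx3 P2 (83.4 and 87.7) and Cbfb (86.9 and 94.2). The median joined width over the 4 promoters was 1066 bp and 916 bp, beside 627 bp and 395 bp over all start domains. Without joining, the median of the widest peak at each promoter was 1031.5 bp in the control list and 436 bp in the asthma list. All 5 promoter peaks of the control list overlapped a peak of the other list, as did all 6 of the asthma list. With an overlap of at least 50% of both peaks, 1 of the 5 and 1 of the 6 were shared. Among start peaks of like −log10 q, the share with any overlap was 56.2% to 92.8% for the peaks of the control list. For those of the asthma list it was 91.2% to 97.4%. These shares stand beside the 5 of 5 and 6 of 6, and none was computed for an overlap of at least 50%. No further peak lay close to the genes. The next peak outside was nearest beyond the 3′ ends of Cbfb, 7207 bp and 7251 bp away, and of Runx3, 7402 bp and 7483 bp away. Beyond the 5′ end of Runx1 it was 755486 bp and 755508 bp away.

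**Figure D3:**
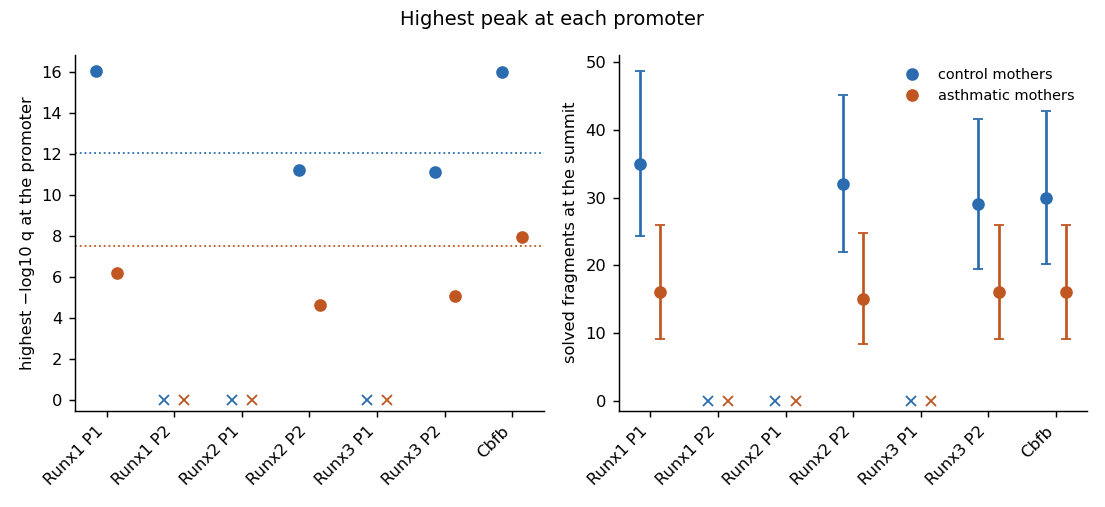
Highest −log10 q (left) and solved fragments at that summit with exact Poisson 95% intervals (right) at each promoter, for 1 library of offspring of control mothers (blue) and 1 of asthmatic mothers (orange), without the second Runx3 peak of the asthma list. Crosses mark promoters without a peak and dotted lines the median −log10 q of all start peaks, 12.0 and 7.53; Runx1 P1 and Cbfb lie above the control line and Cbfb alone above the other.

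The use of 1 promoter of a pair was set beside all coding genes with a distal and a proximal promoter at least 10 kb apart, of which there were 3240, the 3 Runx genes among them. In the control list the distal promoter alone had a peak in 50.9% of these genes, the proximal alone in 6.91%, both in 5.49% and neither in 36.7%. In the asthma list these shares were 45.2%, 5.74%, 3.43% and 45.6%. Runx1 belonged to a kind that held 1649 and 1466 genes, and Runx2 and Runx3 to one that held 224 and 186. This comparison of pairs was chosen after seeing the data, and with 3 members it is a description without a test.

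**Figure D4:**
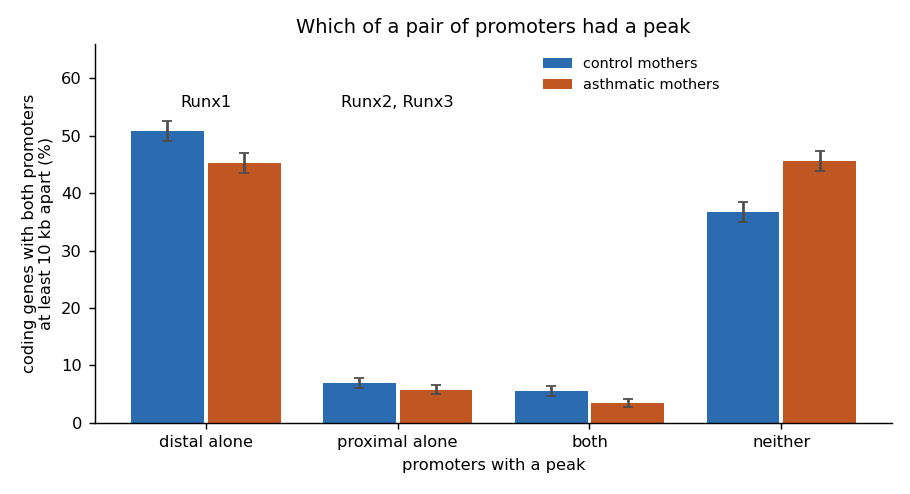
Share of the 3240 coding genes with promoters at least 10 kb apart by which promoter had a peak, in percent with exact Clopper-Pearson 95% intervals (counting error only), for offspring of control mothers (blue) and asthmatic mothers (orange). Runx1 falls with 50.9% and 45.2% of these genes, Runx2 and Runx3 with 6.91% and 5.74%.

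The distal promoters of the Runx genes were poor in CpG and the proximal ones rich. The ratio of observed to expected CpG within 500 bases on both sides of the start was 0.31 at P1 of Runx1, 0.16 at P1 of Runx2 and 0.36 at P1 of Runx3. At P2 it was 0.86, 0.91 and 0.95 in the same order, and 0.93 at the start of Cbfb. Over all pairs the order was the other way, with a median of 0.69 at P1 and 0.26 at P2. Coding promoters were split by this ratio into 5 groups of 6503. In the highest group, which held all 3 Runx P2 starts and that of Cbfb, 87.8% had a peak in the control list and 77.7% in the asthma list. P2 of Runx1 and the further group of Runx1 starts were the members in this group without one. The middle group held P1 of Runx1 and of Runx3, and 17.3% and 11.5% of its promoters had a peak. The marked P1 of Runx1 was in that minority. The second lowest group held P1 of Runx2, with 4.21% and 2.89%.

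**Figure D5:**
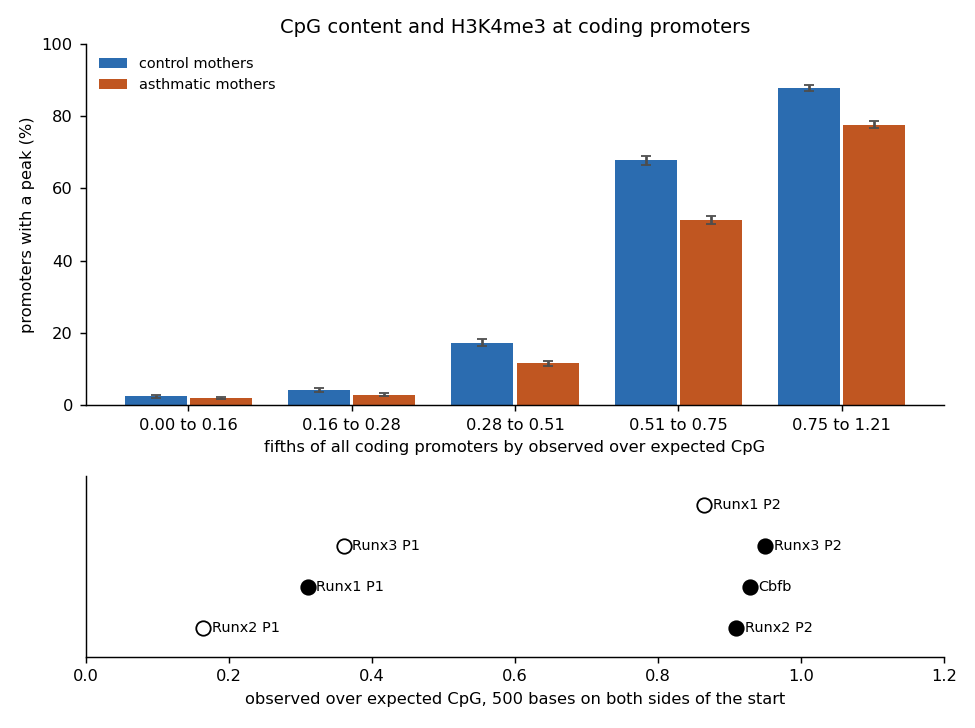
Above, share of coding promoters with a peak in 5 groups by the ratio of observed to expected CpG, in percent with exact Clopper-Pearson 95% intervals, for offspring of control mothers (blue) and asthmatic mothers (orange). Below, the ratio at P1 and P2 of the Runx genes and at the Cbfb start, filled where both lists had a peak; P1 of Runx1 is filled at 0.31 and P2 of Runx1 is open at 0.86.

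For each member, the 2 coding genes nearest to it in the percentiles of highest −log10 q and of joined width in both lists were found, over 2 libraries. They were Cd164 and Elovl1 for Runx1, Slfn2 and Rdh10 for Runx2, Fut11 and Rbl1 for Runx3, and Prmt6 and Rps2 for Cbfb. Starts of non-coding transcripts counted here, so the value of Runx3 in the asthma list was the 8.62 of its second peak. Prmt6 encodes an arginine methyltransferase that is also in the list of Runx cofactors below, and its highest −log10 q was 16.5 and 8.13, beside 16.0 and 7.96 for Cbfb.

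Of 42 genes for proteins known to work with Runx factors, such as corepressors of the groucho family, histone deacetylases, acetyltransferases and partner transcription factors, 37 (88.1%) had a start peak in the control list and 27 (64.3%) in the asthma list. The shares over all coding genes were 51.0% and 42.0%. The cofactors with the highest −log10 q in the control list were Prmt1, an arginine methyltransferase, at 20.4, Kat6a, an acetyltransferase, at 19.4, and Lmo2, an adaptor of blood transcription factors, at 18.2. In the asthma list they were Hdac2, a histone deacetylase, at 14.2, Cbfa2t2, a corepressor, at 13.6, and Kat6a at 13.2. The 27 cofactors of the second list were all among the 37 of the first. The 10 found in the control list alone were Tle2, Cbfa2t3, Yap1, Tal1, Gata3, Cebpa, Myb, Suv39h1, Cdk6 and Cdc20, with a −log10 q from 4.60 at Suv39h1 to 12.1 at Cdc20. Over all coding genes, 9.73% had a start peak in the control list alone, 0.711% in the asthma list alone and 48.3% in neither. Of the coding genes with a start peak in the control list, 19.1% had none in the asthma list.

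Of 40 genes that textbooks place under Runx control in blood cells, lymphocytes or bone, 15 (37.5%) had a start peak in the control list and 10 (25.0%) in the asthma list, both below the shares over all coding genes. Il2ra, a chain of the interleukin-2 receptor, had the highest −log10 q in both lists, at 15.7 and 14.7, followed by Tgfbr2, a receptor for TGF-beta, at 12.8 and 7.39. The next were Ets1, a transcription factor, at 11.2 in the control list, and Bcl11b, a transcription factor of T cells and ILC2s, at 6.57 in the asthma list. Il4, Eomes, Il2rb, Gfi1, Tcf7 and Socs3 had a start peak in the control list alone, with a −log10 q from 4.53 at Eomes to 8.54 at Socs3. Foxp3, the factor of regulatory T cells, had one in the asthma list alone, at 4.72. The 6 of 15 in the control list alone stand beside the 19.1% of all coding genes with a start peak there. No start peak was found in either list for 24 of the 40, beside 48.3% of all coding genes.

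The label of the cells was set beside marker lists. Over all coding genes, 51.0% had a start peak in the control list and 42.0% in the asthma list. Of 15 ILC2 markers, 11 (73.3%) and 8 (53.3%) had one, and 4 had none in either list. Gata3, Il7r and Il5 had one in the control list alone, beside 19.1% of all coding genes with a start peak in that list. Of 8 T cell markers 1 and 0 had one (Lck, −log10 q 5.27), of 6 epithelial markers 2 and 0 (Epcam, 14.7, and Cdh1, 8.98), and of 4 endothelial markers 1 and 0 (Kdr, 3.84). The defining genes of T cells, Cd3d, Cd3e and Cd3g, had none, nor had any marker of B cells (6), macrophages (6), neutrophils (5) or fibroblasts (5). H3K4me3 also marks poised starts, and the part of other cells in the peaks of the Runx genes was not tested.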

How the data were processed

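H3K4me3 was profiled in 1 library of lung ILC2s per group, grouped by the treatment of the mothers in the labels. Reads were trimmed, mapped to mm10 (GRCm38) with Bowtie 2 and cleared of duplicates by the authors; the peak caller, its threshold and its use of the input are not given in the sources used here. The study's reporting summary says that peak calling was not done for the ChIP-seq, although a peak list was deposited for each library, so how the lists arose is not known. A deposited score accompanies every peak and equals the floor of 10 times its −log10 q in 99.979% of rows in the control list and 99.998% in the asthma list. The fold deposited by the authors is a ratio of summit signal to background. They also deposited a −log10 q-value and a −log10 p-value against that background. Position columns and the summit offset of the deposited lists were converted to positions counted from 1.

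Starts came from GENCODE vM21. Coding starts at most 1000 bp apart were 1 promoter, and a peak within 1000 bp was counted. Fragments were solved from fold and p with a Poisson model with 1 added to signal and background, assuming no control library. A whole number of fragments met the deposited −log10 p within 0.002 for 100% of 2000 peaks per list, and the numbers are derived, not the authors'. The study states a total depth but not the depth of each library, and intervals cover counting error only. Sequences and CpG ratios came from the GRCm38.p6 genome and RefSeq windows. Copies of the 75 bases around summits were counted on both strands. The code was tested on simulated data. The members and lists were chosen with earlier results of these data known. Named genes are the 4 members, overlapping genes, the 3 genes of highest −log10 q per gene list, genes with a start peak in 1 list, the 2 nearest genes per member and markers of other cells with a peak. Gm16225, Cd3d, Cd3e and Cd3g fall outside this rule and were named after their values were seen. Computations ran in scipy 1.17.1, pandas 2.3.3, numpy 2.4.6, matplotlib 3.10.9 and Python 3.11.15. Alternatives covered distances, thresholds, joining, ranking and overlap.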

Additional observations from a re-analysis of the deposited data

How the results depend on the processing

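With the 10000 peaks of highest −log10 p of each list, the promoters of the 4 genes with a peak numbered 2 in the control list (P1 of Runx1 and Cbfb) and 0 in the asthma list, and the peaks at the genes 3 and 1. Cofactors with a start peak then numbered 21 and 6, target genes 2 and 1, and coding genes 7073 and 2048. With a −log10 q of at least 5, target genes in the asthma list numbered 6, and P2 of Runx2 lost its peak in that list. Without joining of peaks, the median width over the promoters in the asthma list was 436 bp. Ranked by peak width in place of −log10 q, the median percentile there was 84.7. With an overlap of at least 50% of both peaks, 1 of 5 promoter peaks in the control list and 1 of 6 in the asthma list was shared. A distance of 500 bp removed P2 of Runx3 in the asthma list, and one of 2000 bp added P2 of Runx1 in the control list. Of 84 alternative values for counts and medians, 69 stayed within the limits set for them and 15, given above, did not. For single promoters and the like, 30 of 40 stayed. The comparison of promoter pairs with its alternatives and the one on other coding genes' starts were chosen after seeing the data. The cause of these shifts was not tested. Peak calls show where the caller's threshold was passed, and the depth of the libraries limits what could be listed. No paired analysis was possible because each group held a single library.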
